A study of Mus musculus with 2 samples.

Results

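The 37 genes encoded by mitochondrial DNA were read in poly(A) RNA of G1E-ER4 cells. They were taken as all genes whose GENCODE symbol starts with mt-, and they make up 37 of the 43346 gene rows in each deposited table. Of these, 13 encode proteins, 2 encode ribosomal RNAs and 22 encode transfer RNAs. G1E-ER4 is an immortalized mouse erythroid line that lacks functional Gata1 of its own and carries a fusion of GATA1, the erythroid transcription factor, with the ligand-binding portion of estrogen receptor. The 2 libraries, labelled as biological replicates 1 and 2, form 1 group, 30 h after 17beta-estradiol was added at 10 nM to activate the fusion protein. No untreated library was analysed here, so the data give levels in this state and how the replicates differ, and any effect of estradiol is outside them.

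Mitochondrial DNA is a small circle that is transcribed from both strands into long precursors. The transfer RNAs lie between most of the other genes, and their excision releases the ribosomal and messenger RNAs. Most mitochondrial messenger RNAs then receive a short poly(A) tail. Their products are core subunits of complexes I, III, IV and V of oxidative phosphorylation, in which they assemble with many subunits encoded by the nucleus, while complex II is entirely nuclear. In erythroid cells mitochondria also carry out the first and last steps of heme synthesis, and they are cleared as red cells mature.

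The gene rows summed to 73681318 expected counts, which are estimated fragment numbers, in replicate 1 and 56056404 in replicate 2. Levels are given as TPM, fragment counts per unit of transcript length, scaled to add up to an equal total in both libraries. All 12 erythroid markers reached 1 TPM in both libraries, led by the beta-like globin gene Hbb-bs. None of the 7 myeloid, 4 mast cell, 5 lymphoid and 4 fibroblast markers did so, and 3 of the 5 megakaryocyte markers did. The labels do not say how the cultures were kept apart, so the spread between the libraries may be technical.

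Several of these genes overlap a neighbour or have a near-identical nuclear copy, so those sequences are shown first. All coordinates are those of mm10, the build the files name, with gene models and transcript sequences from GENCODE M21. Of the 37 genes, 28 lie on the plus strand and 9 on the minus strand, which are mt-Nd6 and 8 transfer RNA genes. The end of mt-Atp8 (chrM:7910-7969, plus strand) overlaps the start of mt-Atp6 by 43 bases, shown in capitals. A fragment that reaches into the overlap holds bases of both genes.
mt-Atp8 end: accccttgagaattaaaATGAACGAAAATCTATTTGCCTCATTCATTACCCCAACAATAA
The end of mt-Nd4l (chrM:10134-10173, plus strand) overlaps mt-Nd4 by 7 bases, again in capitals.
mt-Nd4l end: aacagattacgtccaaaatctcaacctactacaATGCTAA
The genes mt-Nd5 and mt-Nd6 overlap by 14 bases on opposite strands. Whether strand was used in the counting is not stated in these sources.

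Near-identical copies of 7 of the protein-coding genes are annotated as unprocessed pseudogenes side by side on the minus strand of nuclear chromosome 1, within 4663 bases (chr1:24611535-24616197). A copy was called near-identical at 99% identity or more over at least 200 bases. Gm28661 matched mt-Co2 without a difference over 681 of its 684 bases, Gm10925 matched mt-Atp6 over 678 of 681, Gm28437 matched mt-Co3 over 783 of 784, and Gm10222 matched mt-Nd4l over 294 of 297. Gm28439 matched the first 876 of the 1378 bases of mt-Nd4 without a difference. Gm28438 differed from mt-Nd3 by 1 substitution in 345 bases, T3C, counted from the first base of mt-Nd3. The starts of mt-Nd3 (chrM:9459-9488, plus strand) and Gm28438 (chr1:24613090-24613119, minus strand) are shown with the differing base in capitals.
mt-Nd3: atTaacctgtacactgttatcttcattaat
Gm28438: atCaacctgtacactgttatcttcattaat
Gm29216 matched the last 483 of the 1545 bases of mt-Co1 at 99.8% identity, with 1 substitution, A1066T, counted from the first base of mt-Co1, and carried 9 further bases before that stretch. Its first 48 bases (chr1:24616150-24616197, minus strand) and the facing stretch of mt-Co1 (chrM:6381-6428, plus strand) held 6 differences, shown in capitals.
mt-Co1: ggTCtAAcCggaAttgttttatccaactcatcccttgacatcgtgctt
Gm29216: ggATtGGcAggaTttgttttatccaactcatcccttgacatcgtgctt
A fragment that falls wholly inside an identical stretch fits both places, and its origin cannot be told apart in these data. Another 11 annotated copies of lower identity, from 85%, were found. The 9 of them that the tables hold took 7 counts in replicate 1 and 3 in replicate 2.

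The ends of the messages are shown because poly(A) addition bears on them. By textbook knowledge, several mitochondrial genes end in a bare T or TA, and the tail supplies the rest of the stop codon. Of the 13 genes, 10 ended in a complete stop codon, such as mt-Co2 (chrM:7673-7696), and 3 ended in a single T, which were mt-Co3 (chrM:9367-9390), mt-Nd4 (chrM:11521-11544) and mt-Cytb (chrM:15265-15288). Capitals mark the stop codon or the part of it that is encoded, and all 4 genes lie on the plus strand.
mt-Co2 end: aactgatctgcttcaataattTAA
mt-Co3 end: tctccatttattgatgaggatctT
mt-Nd4 end: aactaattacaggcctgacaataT
mt-Cytb end: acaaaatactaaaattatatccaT

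As deposited, the 13 protein-coding genes held 0.243% of TPM in replicate 1 and 0.251% in replicate 2 (mean 0.247% ± 0.00578, SD, n = 2). In counts they held 150772 fragments, or 0.205% (95% exact interval 0.204 to 0.206, counting error only), and 105009, or 0.187% (0.186 to 0.188). The 7 nuclear copies held 0.238% of TPM in replicate 1 and 0.167% in replicate 2, and 0.0895% and 0.0592% of counts. With the deposited TPM of the copies added, the protein-coding share was 0.480% and 0.418% of TPM, so adding the copies changed the share more than the choice of library did. In that sum each copy counts per its own length, unlike in the levels with copies below. In bulk RNA, fewer cells of a type and less RNA per cell cannot be told apart, and this holds for each level below.

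The division between a mitochondrial gene and its copy was not alike among the 7 pairs. The copies together took 65931 counts in replicate 1 and 33187 in replicate 2, which was 56.3% and 51.8% of the counts of the pairs. For mt-Co3, a core subunit of cytochrome c oxidase (complex IV), the mitochondrial row had 12 and 9 counts, and Gm28437 had 14051 and 9155. For mt-Co2, which carries the site where cytochrome c delivers electrons, the row had 544 and 223 counts, and Gm28661 had 14708 and 7383. In both pairs the copy held over 96% of the counts in each library.

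For mt-Nd4l, a small membrane subunit of complex I, the row had 615 and 768 counts and Gm10222 had 7564 and 3795. For mt-Atp6, the membrane subunit that forms the proton path of ATP synthase (complex V), the row had 4745 and 6631 counts and Gm10925 had 14685 and 4623. The copy of mt-Atp6 held 75.6% of the pair in replicate 1 and 41.1% in replicate 2, so the larger row changed from one library to the other. For mt-Co1, the catalytic subunit of complex IV, the row had 29670 and 14519 counts, and Gm29216 had 14903 and 8231. Per length, Gm29216 stood above the gene it matches, at 593 and 449 TPM against 286 and 185 TPM.

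The other 2 copies were nearly empty although their sequence matched as well. Gm28439, identical to 876 bases of mt-Nd4, had 19 and 0 counts beside 15190 and 8595 for mt-Nd4. Gm28438 had 0 counts in both libraries beside 423 and 195 for mt-Nd3, while its posterior mean was 18 counts with an SD of 17.4 and 37 counts with an SD of 29.6.

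**Figure D1:**
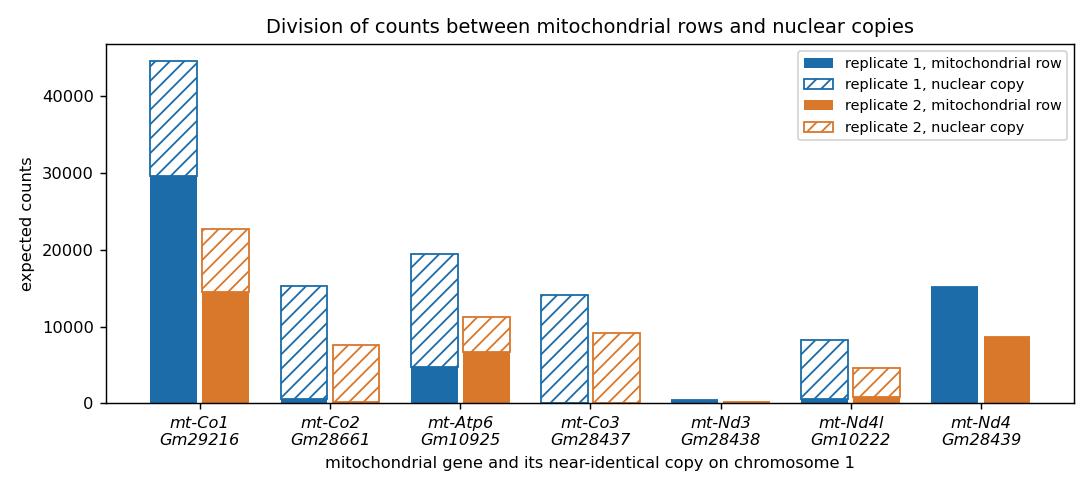
Expected counts (vertical axis) of the mitochondrial row (filled) and of its near-identical copy on chromosome 1 (hatched, stacked above it) for 7 pairs in replicate 1 (blue) and replicate 2 (orange). Over 96% of mt-Co2 and mt-Co3, and 92.5% and 83.2% of mt-Nd4l, stands on the copy, while mt-Nd4 and mt-Nd3 stand on the mitochondrial row.

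The authors' own uncertainty estimates differed between these rows. Beside each expected count the tables give a posterior mean and its SD, which reflect how firmly the fragments could be assigned. For mt-Co3 the posterior mean was 4011 counts with an SD of 3390.4 in replicate 1 and 2327 with an SD of 2257 in replicate 2, against expected counts of 12 and 9. For mt-Co2 it was 4835 with an SD of 4373 and 1523 with an SD of 1237. For mt-Atp6 it was 9360 with an SD of 4669 and 7333 with an SD of 2492. For mt-Co2 and mt-Co3 the SD was nearly as large as the value itself.

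By contrast, the posterior SD was 72.6 and 46.2 counts for mt-Co1. It was at most 0.44 for mt-Nd2 and 0 for mt-Nd1, mt-Nd5, mt-Nd6, mt-Cytb, mt-Atp8 and both ribosomal RNA genes, which have no near-identical copy. For mt-Co1 the small SD does not show where fragments of the stretch it shares with Gm29216 arose. The deposited TPM interval, whose level is not stated, ran from 12.5 to 359.7 for mt-Co2 in replicate 1 and from 1.27 to 127 in replicate 2. For mt-Co3 it ran from 9.61 to 235 and from 0.110 to 178. The deposited TPM of mt-Co3, 0.260 in each library, lay below its interval in replicate 1. Lying outside the interval was not particular to genes with a copy. The 589 TPM of mt-Cytb in replicate 2 lay above its interval, 574 to 586.

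**Figure D2:**
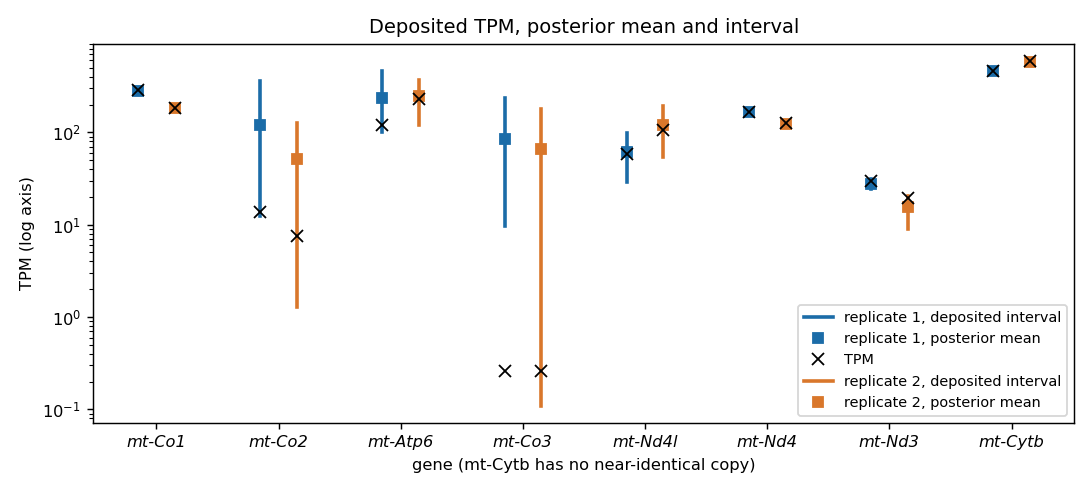
Deposited TPM (crosses), posterior mean TPM (squares) and the authors' interval (lines) on a log axis for the 7 genes with a near-identical copy and for mt-Cytb, which has none. The lines are long for mt-Co2, mt-Co3, mt-Atp6 and mt-Nd4l and shorter than the symbols for mt-Co1, mt-Nd4 and mt-Cytb.

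Levels per length differed widely among the genes. In complex III, mt-Cytb (ENSMUSG00000064370.1), which encodes the heme-bearing cytochrome b, stood at 463 TPM in replicate 1 and at 589 TPM in replicate 2. In complex V, mt-Atp8 (ENSMUSG00000064356.3), a small accessory membrane subunit, had 516 and 539 TPM. These were the 2 highest rows, and their values overlapped (means 526 ± 89.1 and 527 ± 16.1 TPM, SD, n = 2). The level of mt-Atp8 leaned on its short length, since its effective length, the number of positions at which a fragment can start, was 51.0 and 37.8 of 204 bases. As CPM per kilobase of annotated length it had 130.5 and 102, below the 405 and 511 of mt-Cytb.

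Among the 7 complex I genes, whose products form the proton-pumping membrane arm, mt-Nd1 had 305 and 342 TPM and mt-Nd2 had 216 and 220.5 TPM. The long gene mt-Nd5 had 248 and 145 TPM, and mt-Nd4 had 167 and 125 TPM. The row of mt-Nd4l had 58.1 and 107 TPM, and 773 and 636 TPM with its copy added. The lowest complex I genes were mt-Nd3, at 29.4 and 19.3 TPM, and mt-Nd6, at 4.98 and 3.02 TPM.

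The gene mt-Nd6 (chrM:13552-14070) is the protein-coding gene of the minus strand, and its values rested on 135 and 60 counts. It was lower than mt-Nd5, which adjoins it on the plus strand, by 49.9-fold in replicate 1 and 48.2-fold in replicate 2. Only poly(A) RNA was read and tails were not measured, so the gap in the cells may differ. No near-identical copy of it was found, and the copy of lower identity, Gm11408, had 0 counts in both libraries.

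In complex IV, mt-Co1 had 286 and 185 TPM, mt-Co2 13.8 and 7.59 TPM and mt-Co3 0.260 TPM in each library, as deposited. With the copies added and divided by the length of the mitochondrial gene, they had 430.2 and 289.5, 387 and 259, and 300.0 and 262 TPM. The 3 genes, which were orders of magnitude apart by deposited TPM, then lay within 1.5-fold of each other in each library. By deposited posterior means, without copies, the gap was also smaller, with mt-Co1 at 283 and 182, mt-Co2 at 121 and 51.1 and mt-Co3 at 84.7 and 65.4 TPM. In complex V, the mt-Atp6 row had 121 and 228 TPM, and 496 and 386 TPM with its copy. The ratio of mt-Atp8 to mt-Atp6, which share 1 message, was 4.26 and 2.37 as deposited and 1.04 and 1.40 with the copy. The ratio of mt-Nd4l to mt-Nd4, which also share a message, was 0.349 and 0.860 as deposited and 4.63 and 5.11 with the copies. The effective length of mt-Nd4l was 142 and 125 of 297 bases, so its TPM and this ratio leaned on its short length.

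Over all 13 genes, the highest row exceeded the lowest by 1984-fold in replicate 1 and 2266-fold in replicate 2 by deposited TPM, and by 155-fold and 211-fold with copies added. The lowest by deposited TPM was mt-Co3, whose posterior mean was 84.7 and 65.4 TPM. With mt-Nd6 also left out, the range was 26.3-fold and 32.9-fold. In the order of deposited means, 7 of the 12 neighbouring steps separated both values of the upper gene from both of the lower. The 5 steps that did not were mt-Atp8 to mt-Cytb, mt-Co1 to mt-Nd2, mt-Nd2 to mt-Nd5, mt-Nd5 to mt-Atp6 and mt-Atp6 to mt-Nd4. With copies added 4 steps did so: mt-Nd4l to mt-Atp8, mt-Co3 to mt-Nd2, mt-Nd4 to mt-Nd3 and mt-Nd3 to mt-Nd6. The top place of mt-Nd4l in the order with copies leaned on its short effective length. In that order the neighbouring steps from mt-Co1 to mt-Nd1, from mt-Nd1 to mt-Co2 and from mt-Co2 to mt-Co3 did not separate, although both values of mt-Nd1 lay above both of mt-Co3.

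**Figure D3:**
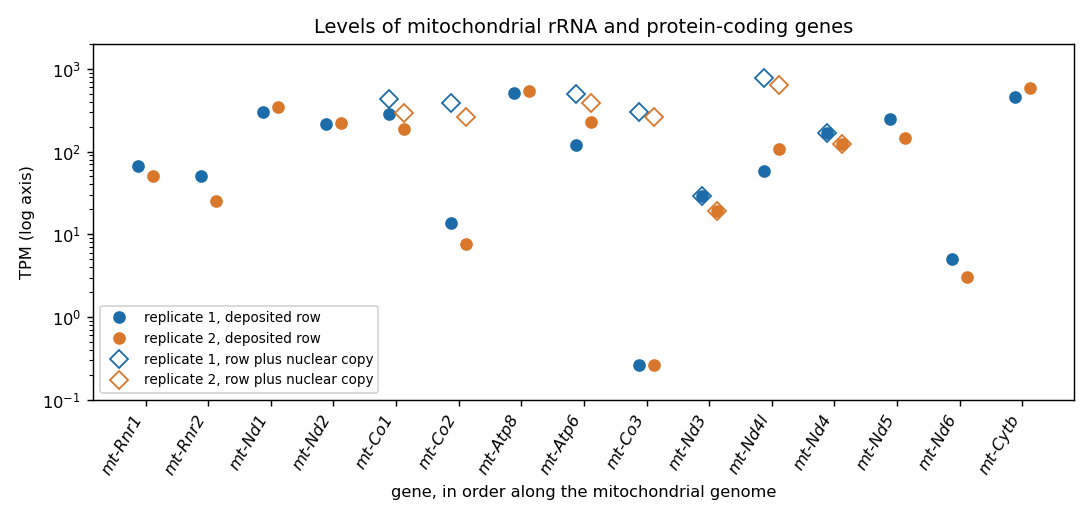
TPM (log axis) of the 2 ribosomal RNA and 13 protein-coding genes in order along the mitochondrial genome, for replicate 1 (blue) and replicate 2 (orange), as deposited (filled) and, for the 7 genes that have one, with the near-identical nuclear copy added (open diamonds). Adding the copy moves mt-Co2 and mt-Co3 from 13.8 TPM or less to 259 TPM or more. The lowest row is mt-Co3 as deposited and mt-Nd6 with copies added.

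The ribosomal RNA genes, read apart from the messages, had lower levels than most of them. The small ribosomal RNA gene mt-Rnr1 (chrM:70-1024) had 4002 and 2299 counts, or 67.1 and 51.3 TPM. The large ribosomal RNA gene mt-Rnr2 (chrM:1094-2675) had 5405 and 2056 counts, or 50.8 and 25.5 TPM. The ratio of mt-Rnr1 to mt-Rnr2 was 1.32 and 2.01. Together they held 0.0118% and 0.00768% of TPM. Poly(A) selection is meant to remove ribosomal RNA, so these values do not measure its amount in the cells.

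The 22 transfer RNA genes had 0 counts in both libraries, but the tables could not have shown them. They are 59 to 75 bases long, and each had an effective length of 0. All 26172 rows of at most 75 bases, mitochondrial or not, had 0 counts in each table. The shortest row with any count was 109 bases in replicate 1 and 108 in replicate 2, and the shortest with an effective length above 0 was 115 and 117 bases. The labels also give a library size range above 175, without a unit. The shortest transfer RNA gene, mt-Ts2 (chrM:11613-11671, plus strand), which reads serine codons, and the longest, mt-Tl1 (chrM:2676-2750, plus strand), which reads leucine codons, show how little sequence a fragment would have to fit.
mt-Ts2: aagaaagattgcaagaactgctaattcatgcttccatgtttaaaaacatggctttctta
mt-Tl1: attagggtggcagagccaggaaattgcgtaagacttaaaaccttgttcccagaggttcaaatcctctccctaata
The zeros are thus no measure of transfer RNA abundance.

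Nuclear subunits that assemble with these proteins were set beside them, complex by complex, as deposited, since their own processed pseudogenes were not searched. All 77 measured nuclear subunits of the 5 complexes reached 1 TPM in both libraries, against 7570 of 21472 (35.3%) protein-coding genes. In complex I the median of 36 nuclear subunits was 119 and 97.2 TPM, led by Ndufab1, the acyl carrier protein, at 812 ± 168 TPM, Ndufa6 at 806 ± 166 and Ndufb10 at 802 ± 22.4, with Ndufs4 lowest at 1.10 ± 0.127 (SD, n = 2). The median of the 7 mitochondrial subunits exceeded it by 0.48 and 0.36 on the log2(TPM + 1) scale, and by 0.85 and 0.58 with copies added.

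In complex III the 9 nuclear subunits had medians of 105 and 128 TPM. The small subunit gene Uqcr11 led with 1192 ± 24.2 TPM, followed by the core protein gene Uqcrc1 at 245 ± 4.93 and Uqcrq at 227 ± 16.4, and the core protein gene Uqcrc2 was lowest at 5.37 TPM in both libraries. The single mitochondrial subunit gene, mt-Cytb, stood 2.13 and 2.19 above the nuclear median on that scale. In complex II, which has no mitochondrial subunit, Sdhb had 57.7 ± 7.69, Sdha 42.6 ± 1.67, Sdhc 21.7 ± 15.7 and Sdhd 16.1 ± 3.68 TPM.

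Complex IV was where the direction turned. Its 11 nuclear subunits had medians of 76.9 and 63.8 TPM, led by Cox6a1 at 4091 ± 699, Cox5b at 2102 and 2073 in the 2 libraries and Cox5a at 729.7 ± 39.6, with Cox7a2 lowest at 7.79 ± 2.88. By deposited TPM, the mitochondrial median lay below the nuclear one by a log2 difference of -2.40 in replicate 1 and -2.92 in replicate 2. This direction rested on the choice of estimate. By deposited posterior means mt-Co1 had 283 and 182 TPM, mt-Co2 121 and 51.1 and mt-Co3 84.7 and 65.4. Of these only the 51.1 of mt-Co2 lay below the nuclear median given for its library. The nuclear medians were not recomputed from posterior means. With the copies added to the TPM, on the mitochondrial side only, the mitochondrial median lay above, at 2.31 and 2.02. In complex V the 17 nuclear subunits had medians of 50.6 and 47.8 TPM, led by the catalytic beta subunit gene Atp5b at 1799.6 ± 355, Atp5d at 1022 ± 7.89 and the ring subunit gene Atp5g3 at 746 ± 367 TPM, with Atp5e lowest at 1.79 ± 0.0778. The mitochondrial median stood 2.28 and 2.85 above it as deposited and 3.29 and 3.23 with the copy of mt-Atp6 added.

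**Figure D4:**
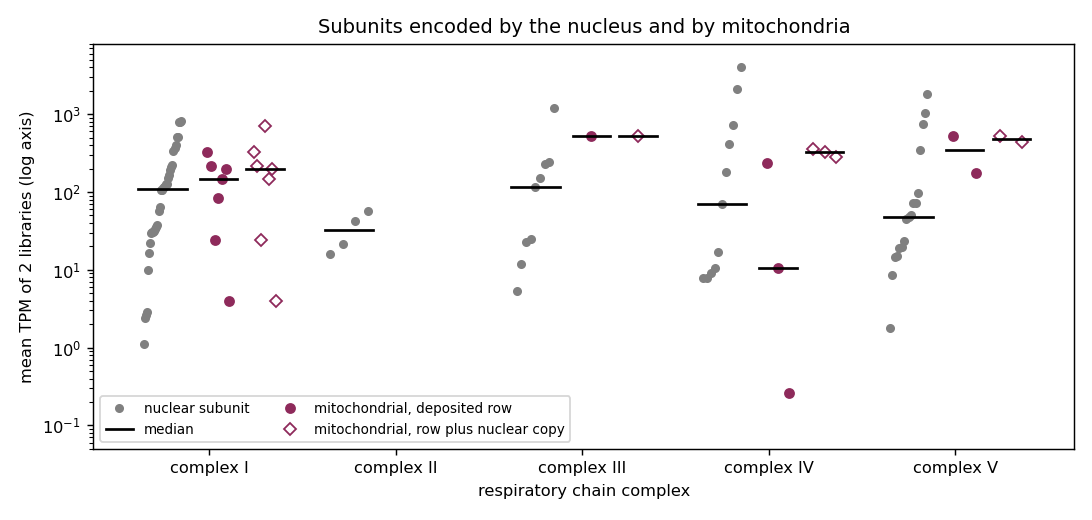
Mean TPM of both libraries (log axis) for nuclear subunits (grey), mitochondrial subunits as deposited (filled) and mitochondrial subunits with near-identical copies added (open diamonds) in complexes I to V, with group medians as bars. The mitochondrial median of complex IV lies below the nuclear one as deposited and above it with copies added.

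Base composition differed between the genomes and moves with this comparison. The 13 mitochondrial genes had a GC content of 31.9% to 41.1%, while the 77 nuclear subunits ranged from 41.3% to 60.8%, so none fell in the mitochondrial range. Over the 7558 other protein-coding genes that passed 1 TPM in each library, the median GC content was 51.4%. The 225 of them in the mitochondrial range had medians of 4.93 and 4.68 TPM, against 15.6 and 14.9 TPM for all 7558. Of the 13 mitochondrial genes, 11 stood above those lower medians in both libraries, and mt-Co3 and mt-Nd6 did not. With the copies added, mt-Co3 did so too. The part of GC content in the levels was not tested.

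Nuclear genes that maintain, copy and process the mitochondrial genome had lower median levels than the nuclear subunits. Of 18 genes for transcription and DNA maintenance, 11 reached 1 TPM in both libraries, with medians of 2.23 and 1.60 TPM. The DNA polymerase gene Polg led at 154 ± 2.26 TPM, followed by Mrpl12, a mitochondrial ribosomal protein gene whose product also binds the mitochondrial RNA polymerase, at 93.5 ± 2.19 and the DNA ligase gene Lig3 at 31.9 and 40.1, and Mterf2 was lowest at 0.155 ± 0.00707. Of 30 genes for RNA processing and stability, 21 reached 1 TPM, with medians of 6.65 and 6.19 TPM. Fastk, tied to the stability of the mt-Nd6 message, had 228 ± 1.69 TPM, the exonuclease gene Rexo2 217 ± 15.8 and Tbrg4, also called Fastkd4, 63.5 ± 5.83, while Fastkd1 had 0.0800 ± 0.0141. Of 22 genes for charging mitochondrial transfer RNAs, 16 reached 1 TPM, with medians of 5.50 and 5.04 TPM. Gars and Kars, which also serve the cytosol, had 40.3 ± 4.29 and 24.9 ± 3.25 TPM, Vars2 had 26.3 ± 1.62 and Qrsl1 was lowest at 0.285 ± 0.148.

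To compare the replicates, each gene's counts were put to a two-sided exact binomial test after TMM scaling, a normalization of library size, with Benjamini-Hochberg adjustment over 10445 genes. Each side is 1 library, so the test compares these libraries and covers counting error only. It called 59.2% of all genes, 30% higher and 29.2% lower in replicate 2. Of the 13 protein-coding mitochondrial genes 12 passed, 5 higher and 7 lower, with mt-Co3 not called. Genes with more counts pass more readily: of all genes with at least 100 summed counts, 66.2% passed.

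The size of the differences says more. A fold of 1.5 or more was reached by 15.5% of all genes, with 5.13% higher and 10.4% lower in replicate 2. Among the 13 genes, mt-Atp6 and mt-Nd4l were higher by that measure, and mt-Co2, mt-Nd3, mt-Nd5 and mt-Nd6 were lower. With TMM scaling mt-Atp6 rose by 0.95 on the log2 scale (95% interval 0.89 to 1.00, exact binomial adjusted p = 7.53e-264) and mt-Nd4l by 0.78 (0.63 to 0.94, exact binomial adjusted p = 4.78e-23). Both reversed once the copies were added, to -0.32 (-0.36 to -0.29) and -0.38 (-0.43 to -0.33), so no gene was then 1.5-fold higher. The genes then lower by 1.5-fold were 3, mt-Nd3, mt-Nd5 and mt-Nd6, and mt-Co2, at -0.54, was no longer among them. With the authors' posterior mean counts in place of expected counts, the log2 difference was 0.11 for mt-Atp6, -1.20 for mt-Co2 and -0.32 for mt-Co3, which was then called.

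Genes without a near-identical copy also moved apart from each other. From replicate 1 to replicate 2, mt-Cytb rose by 0.40 (0.38 to 0.43), mt-Nd1 by 0.22 (0.19 to 0.25) and mt-Nd2 by 0.09 (0.05 to 0.12). In contrast mt-Nd5 changed by -0.70 (-0.73 to -0.68), mt-Nd6 by -0.70 (-1.17 to -0.26) and mt-Atp8 by -0.29 (-0.39 to -0.18). With library totals in place of TMM the call for mt-Nd2 was lost (0.02, exact binomial adjusted p = 0.405), and the share of calls that were higher, over all genes, fell from 50.7% to 39.1%. The row of mt-Co3 was not called (0.07, interval -1.38 to 1.42), which its 12 and 9 counts could not resolve.

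The ribosomal RNA genes were both lower in replicate 2. The change was -0.93 (exact binomial adjusted p = 8.69e-147) for mt-Rnr2 and -0.34 (-0.41 to -0.26, exact binomial adjusted p = 1.90e-18) for mt-Rnr1. The median change was -0.29 over the 13 protein-coding genes as deposited, -0.36 with copies added and -0.01 over all genes tested. Among nuclear subunits it was -0.20 for complex I, with 6 of 36 called higher and 23 lower, and -0.32 for complex II, with 4 of 4 lower. It was 0.03 for complex III, with 4 of 9 higher and 2 lower, -0.22 for complex IV, with 3 of 11 higher and 6 lower, and -0.14 for complex V, with 5 of 17 higher and 9 lower. Of the genes for transcription and DNA maintenance 4 of 18 were higher and 2 lower, of those for RNA processing 6 of 30 and 10, and of those for charging transfer RNAs 3 of 22 and 5. For comparison, 30% of all 10445 genes tested were called higher and 29.2% lower. Of the 7570 protein-coding genes that passed 1 TPM in each library, 2781 were called higher and 2431 lower. Whether the calls of any list departed from these shares was not tested. The summed level of 7 myeloid markers also differed between the libraries, at 0.320 and 11.0 TPM, with Mpo at 0.190 and 3.96 TPM and S100a8 at 0 counts in both, and its part in these differences was not tested.

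**Figure D5:**
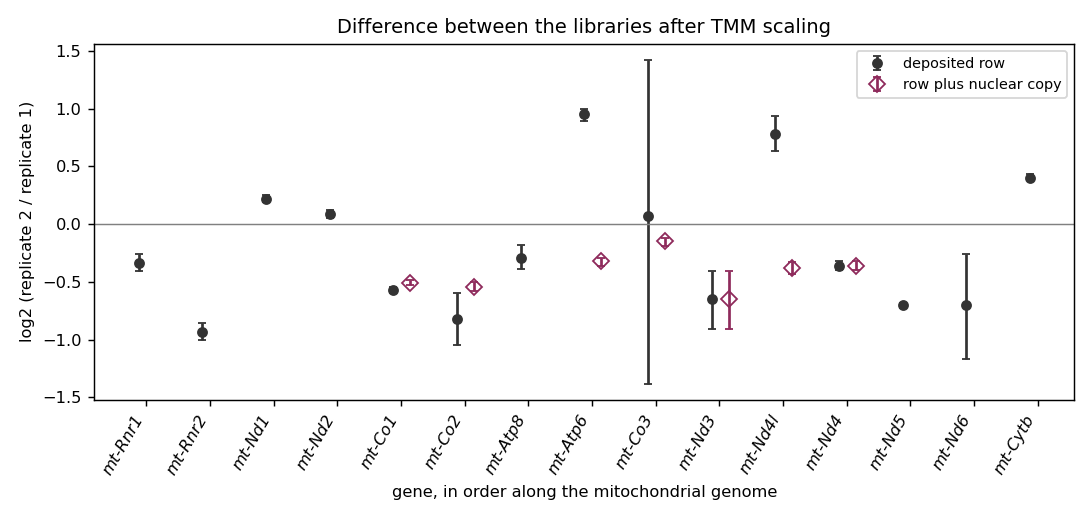
Log2 ratio of replicate 2 to replicate 1 after TMM scaling, with 95% binomial intervals for counting error, for each mitochondrial row (black) and for the row plus its near-identical copy (open diamonds), in order along the genome. Adding the copy moves mt-Atp6 and mt-Nd4l from above 0 to below it, and mt-Nd1, mt-Nd2 and mt-Cytb lie above 0.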

How the data were processed

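Poly(A) RNA of 2 libraries of 1 group was analysed from the deposited gene tables, and the deposited transcript tables gave the same counts for all 37 genes, each with 1 transcript. Per the deposited description files, values refer to mm10 and GENCODE M4. The aligner, quantifier, versions and strand handling are not stated in these sources. Deposited expected counts are estimated fragments per gene, deposited TPM values are counts per effective length scaled to the same sum, and deposited FPKM values are divided by both length and sequencing depth, per the file headers. Names, coordinates and sequences came from GENCODE M21, which matched 42462 of 43346 gene rows. Rows other than genes held 5 and 4 counts and were left out.

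Copies were found with blastn 2.17.0 among M21 transcripts (at least 85% identity over 200 bases). For the level of a gene and for the ratios, a copy's counts were added to those of its gene and divided by the gene's effective length. For shares of TPM, the deposited TPM of the copy rows, each per its own length, was added as it stood. Expected counts were rounded, scaled with TMM (edgeR 4.0.16) and compared at a minimum of 20 summed counts and an adjusted p of 0.05. Simulated counts of the genes of this comparison, with counting noise alone, gave calls for 100% of 50 genes changed 2-fold and 100% of 50 changed 0.5-fold. The share was 82% for 1.25-fold, 80% for 0.8-fold and 0.0391% for 10241 genes left unchanged. The changed genes were drawn from those with a mean of at least 100 counts. Their shares therefore do not cover lower rows such as mt-Co3 and mt-Nd6. A count of 0 allows up to 3 counts on rows that share no sequence, and each interval and floor reflects counting error alone. List ratios used log2(TPM + 1), a scale that understates the change of low genes. All 37 genes are accounted for. Of each nuclear list the 3 highest genes and the lowest are named, and copies with at least 100 counts are named, with the others of the chromosome 1 cluster and Gm11408 added after their values were seen. Of 148 list entries Ndufb1 was not matched. Members and lists were chosen with earlier results of these data known. Python 3.11.15, scipy 1.17.1, R 4.3.3 and DESeq2 1.42.0 (for alternative size factors) were also used. The alternatives tried were other units, totals, filters, pseudocounts and scalings, added copies, and leaving out each replicate.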

Additional observations from a re-analysis of the deposited data

How the results depend on the processing

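Adding the near-identical copies, each at its own deposited TPM, moved the protein-coding share from 0.247% to 0.449% of TPM. It was also 0.449% with copies down to 85% identity. In counts, adding the near-identical copies moved the share from 0.196% to 0.270%. Copies added per the gene's effective length moved the log2 ratio to nuclear subunits to 0.71 in complex I and 3.26 in complex V. They reversed it from -2.66 to 2.17 in complex IV. These ratios were not computed from posterior means. The share of TPM was 0.266% by posterior means, 0.341% without globin genes in the total and 0.259% of protein-coding TPM, and the share of counts was 0.219% without globin genes. With means of log2 values the ratio was 0.08 in complex I and 2.84 in complex III, and with a pseudocount of 5 TPM it was -2.29 in complex IV. The cause of these shifts was not tested, beyond the change of numerator or total that each setting makes. Leaving out replicate 1 or 2 gave 0.243% to 0.251% of TPM. Between 11 and 13 of the 13 genes differed between the libraries in the 8 settings run. Over all tested genes, 38.8% to 66.2% were called in these settings. With copies added 13 of the 13 genes differed, 3 higher and 10 lower, and 59.2% of all tested genes were called, 50.7% of those calls being higher. Adding copies to the ratios, to the library comparison and from 85% identity was chosen after seeing the data. No paired analysis was possible because the series holds 1 group. Depth limits mt-Nd6, with 135 and 60 counts.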
